A study of Homo sapiens with 8 samples.

Results

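Actin is the building block of the thin filaments that give a cell its shape and let it move, and 5 genes of that system were followed here: ACTB and ACTG1, which encode the cytoplasmic β- and γ-actins, and PFN1, CFL1 and TMSB10, which encode the actin-binding proteins profilin-1, cofilin-1 and thymosin β10. The members were all array features that the platform annotation assigns to 1 of these genes and that had values on 6 or more of the 8 arrays. This gave 16 features of 15246: 11 for ACTB, 3 for ACTG1 and 2 for PFN1. No feature was assigned to CFL1 or TMSB10, so no value is given for them; 5073 features had no gene listed. Of the 16 features, 11 had values on all 8 arrays and 5 on 7, so none of these genes' features fell short of 6.

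The established human cell line L363, derived from plasma cells and labelled as multiple myeloma, was given 12.5 µM MLN120B at 37 °C or the solvent DMSO. MLN120B blocks IKKβ, a kinase that releases the transcription factor NF-κB from its inhibitors. Exposure lasted 8 h (2 arrays), 12 h (3) or 24 h (3), and every array read treated cells in Cy5 against DMSO cells in Cy3. The series title places the arrays in a study of NF-κB in myeloma. All samples are of 1 cell line, and the labels do not state whether each sample was grown as its own culture. The p-values given here thus rest on a spread among samples that could be purely technical. The cells were measured in bulk, so fewer expressing cells and less RNA per cell cannot be told apart.

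Actin subunits pass between a monomer pool and filaments. Profilin hands monomers to growing filament ends, thymosins of the β family hold monomers in reserve, and cofilin severs old filaments. In lymphoid cells filaments are reshaped during adhesion and migration. Actin genes are known targets of the serum response factor SRF, whose coactivators of the MRTF family bind free actin monomers, and ACTB is widely used as a reference gene on the premise that its RNA level is steady.

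The promoter sequences of the measured members bear on this known regulation, and are shown for ACTG1, which carries the SRF-binding CArG box, and for PFN1, which does not. Both are the 250 bases before the annotated gene start, 5′ to 3′ on the gene's strand, from RefSeq on the GRCh38.p14 assembly, with the CArG box in capitals. ACTG1 lies at chr17:81512800-81513049 and PFN1 at chr17:4948531-4948780, both on the minus strand.
ACTG1: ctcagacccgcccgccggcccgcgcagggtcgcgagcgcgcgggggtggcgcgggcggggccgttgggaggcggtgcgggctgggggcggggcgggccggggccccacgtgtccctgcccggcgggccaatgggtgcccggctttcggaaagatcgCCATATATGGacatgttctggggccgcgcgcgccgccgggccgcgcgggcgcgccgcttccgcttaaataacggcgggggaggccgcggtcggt
PFN1: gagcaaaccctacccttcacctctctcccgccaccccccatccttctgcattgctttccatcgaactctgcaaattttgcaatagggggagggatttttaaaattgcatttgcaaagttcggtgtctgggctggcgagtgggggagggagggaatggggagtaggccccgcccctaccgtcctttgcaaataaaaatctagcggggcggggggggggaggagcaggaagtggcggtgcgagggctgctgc
The box CCATATATGG lies at bases -94 to -85 before the ACTG1 start. Of 35116 promoter windows of this length 1.16% hold a CArG box, searched on both strands with no mismatch. A 10-base NF-κB motif, searched the same way, is in neither window and in 9.96% of all windows. The match is a description of these letters, and their absence from a window says nothing of SRF or NF-κB binding. ACTB is not among the promoters matched.

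Values are log2 ratios centred on each array's median, likely MLN120B over DMSO, so that a negative value means lower with the inhibitor. If the ratios run the other way, every sign given here turns. The dyes were never exchanged, so treatment and any feature's dye preference cannot be told apart. The labels' database numbers fall into 3 close runs, called database runs: run 1 is made up of sample 3 of the 12 h and 24 h times. Run 2 joins sample 2 of the 8 h time to sample 1 of both later times, and run 3 joins sample 1 of the 8 h time to sample 2 of both later times. What a run stands for is not given. The SD over all features was 1.00 to 1.42 on the arrays of run 2, 0.35 and 0.58 in run 1, and 0.21 to 0.28 in run 3. Arrays held values for 6344 to 13007 features, and between runs they correlated at -0.21 to 0.13. The 10 plasma cell markers listed all had values, but ratios do not show their level, so the cell type could not be checked.

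ACTB, averaged over the 10 or 11 of its features measured on an array, was at 0.14 (sample 1) and -0.66 (sample 2) after 8 h. After 12 h it was at -1.30, 0.048 and -1.29 in sample order, and after 24 h at -0.88, -0.26 and 0.23. The samples of every time overlapped those of the others, and 5 of 8 arrays lay below 0, among them all 3 of run 2. The mean over the 3 times was -0.47 ± 0.21 (SE, n = 8), and 4.07% of all 5411 rows had a lower mean; a row is a gene, with its features averaged, or an unnamed feature. Of the 3460 rows with 8 values, 36.2% were below 0 on at least 5 arrays. ACTB and ACTG1 were singled out in an earlier look at these means, so the means are a description and no test of them is given.

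By run, ACTB averaged -0.53 ± 1.08 for run 1 (SD, n = 2), -0.95 ± 0.32 for run 2 (n = 3) and -0.026 ± 0.21 for run 3 (n = 3). The 2 arrays of run 1 thus lay far apart, at -1.29 and 0.23. They averaged partly different features. Feature 34951_1, at -4.90 on sample 3 at 12 h, had no value on sample 3 at 24 h. Feature 20238_1, at 0.60 on the latter, had none on the former. Features with values on both arrays differed too. Feature 35004_1 was at -2.38 at 12 h and 1.15 at 24 h, and feature 35017_1 at -2.32 and 0.52. Of the features on both, only 20243_1 (0.41 and 0.13) and 35007_1 (0.15 and 0.11) were lower at 24 h. Without run 2 the ACTB mean over the 3 times was -0.17 ± 0.20 (SE). Values were also put in units of each array's own median absolute deviation over features, scaled to match an SD. This takes out the unequal spread of the arrays. In these units ACTB ran from -2.66 on sample 3 at 12 h to 0.86 on sample 3 at 24 h, both of run 1. Its percentile among the rows of an array ran from 1.29 to 83.0. On that scale the extremes of ACTB came from the 2 arrays of run 1.

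ACTG1, whose coding sequence is close to that of ACTB, was lower with the inhibitor on 7 of 8 arrays. Averaged over the 2 or 3 of its features measured, it was at -0.11 and -0.30 after 8 h in sample order. After 12 h it was at -0.80, -0.14 and -0.47, and after 24 h at -0.90, -0.43 and 0.082. The -0.11 came from only 2 features, 27500_1 at 0.062 and 17079_1 at -0.28, so its sign rests on the latter. The -0.14 came from 24875_1 at -0.004 and 17079_1 at -0.28. The array above 0 was sample 3 at 24 h, on which ACTB was also highest. A count of at least 7 below 0 was reached by 5.87% of rows with 8 values, and 8 of 8, which ACTB, ACTG1 and PFN1 did not reach, by 1.3%. The mean over the 3 times was -0.36 ± 0.15 (SE, n = 8), with 7.15% of rows lower. Run means were -0.19 ± 0.39 in run 1, -0.67 ± 0.32 in run 2 and -0.23 ± 0.17 in run 3 (SD), all below 0, and without run 2 the mean over the 3 times was -0.19 ± 0.13 (SE). In units of the array's median absolute deviation, scaled to match an SD, ACTG1 was lowest on sample 2 at 24 h, at -1.64.

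PFN1, the profilin gene, had a mean over the 3 times of -0.25 ± 0.17 (SE, n = 8), with 14.4% of rows lower. Its 2 features averaged 0.042 and -0.16 after 8 h in sample order. They averaged -0.61, -0.10 and 0.31 after 12 h, and -1.20, -0.35 and -0.10 after 24 h. All 3 arrays at 24 h were below 0 and the arrays of the 3 times overlapped; in all, 6 of 8 were below 0, as were at least 6 for 17.2% of rows with 8 values. On sample 3 at 12 h, where ACTB was at -1.29, PFN1 was at its highest. Run means were 0.10 ± 0.29 in run 1, -0.65 ± 0.52 in run 2 and -0.14 ± 0.20 in run 3 (SD). Without run 2 the mean over the 3 times was -0.026 ± 0.12 (SE), and without sample 1 at 24 h alone it was -0.14.

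**Figure D1:**
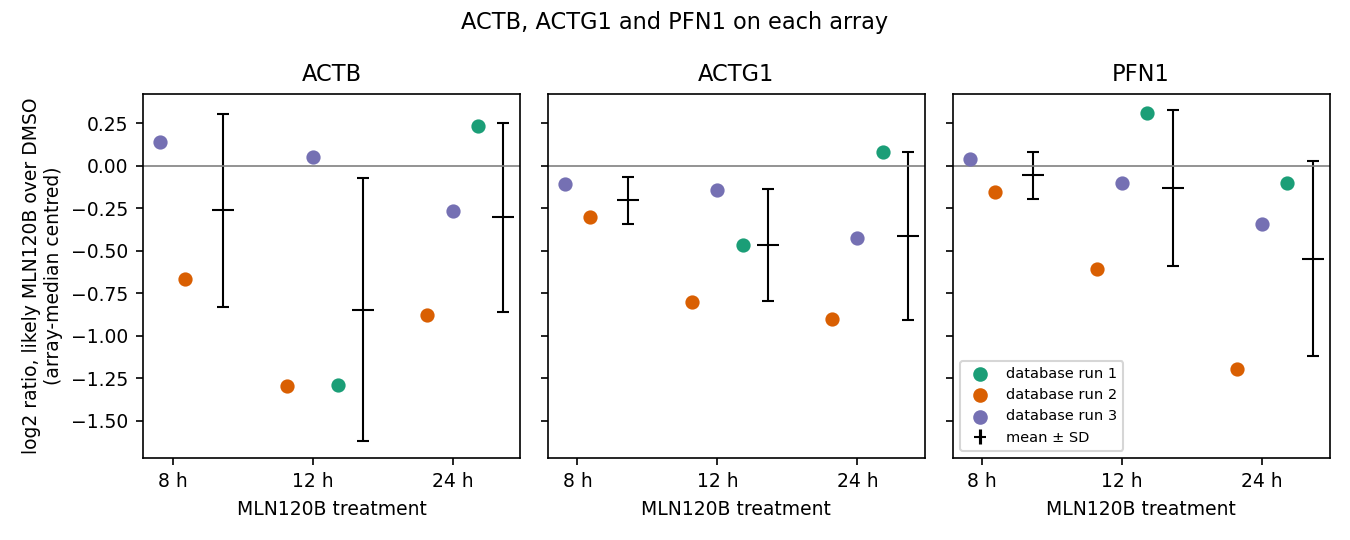
The log2 ratio of each array (dots, coloured by database run) for ACTB, ACTG1 and PFN1 at 8 h, 12 h and 24 h, with the mean ± SD of each time (black; n = 2, 3 and 3). The lowest value of each gene, -1.30, -0.90 and -1.20, is on an array of run 2, and sample 3 at 24 h is the only array above 0 for ACTG1.

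Within an array ACTB minus ACTG1 ran from -0.82 on sample 3 at 12 h to 0.25 on sample 1 at 8 h, with a median of 0.086 and 3 of 8 arrays below 0. ACTB minus PFN1 ran from -1.60 to 0.33, with its lowest value again on sample 3 at 12 h. ACTG1 minus PFN1 ran from -0.78 to 0.29. The largest gap between each pair was therefore on 1 array, sample 3 at 12 h, where PFN1 was above 0 and both actin genes were below. Cross-hybridisation between the 2 actin genes, and with other actin copies, was not tested, and no feature sequence was used here.

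The 11 ACTB features did not give 1 value for the gene. On sample 3 at 12 h the 10 that were measured spanned 5.31 log2 units, from -4.90 for feature 34951_1 to 0.41 for feature 20243_1. On sample 1 at 12 h they ran from -4.32 to -0.31 and on sample 2 at 8 h from -2.55 to 0.75. In run 3 they lay close together, from -0.039 to 0.33 on sample 1 at 8 h, from -0.27 to 0.26 on sample 2 at 12 h and from -0.62 to -0.015 on sample 2 at 24 h. On that last array 11 of 11 features were below 0, as on sample 1 at 12 h; on sample 1 at 8 h 10 of 11 were above 0.

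**Figure D2:**
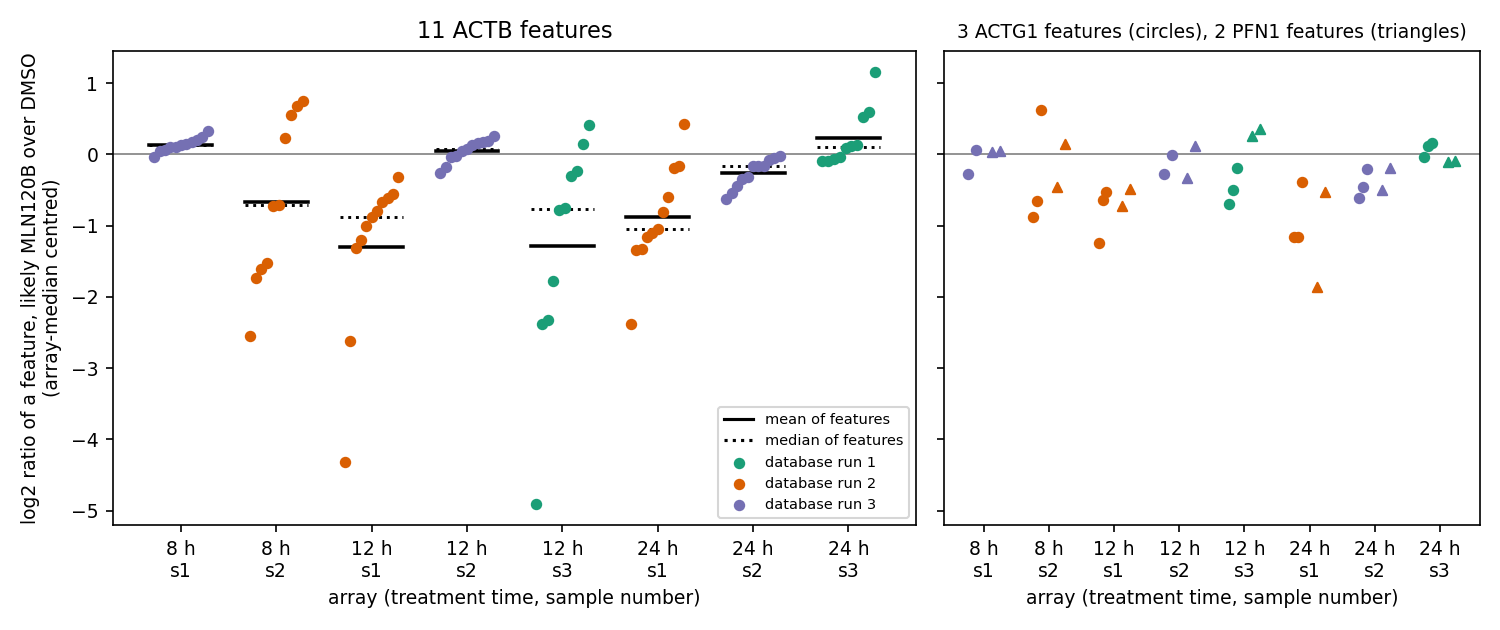
The log2 ratio of each feature on each array (dots, sorted within an array, coloured by database run), with the mean (solid line) and the median (dotted line) of the ACTB features. On sample 3 at 12 h the mean of the ACTB features is -1.29 and their median -0.76, and in run 3 the features lie within 0.61 log2 units of each other.

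Averaged over its arrays, each of the 11 ACTB features had a mean below 0, from -1.64 ± 1.87 for feature 34951_1 (SD, n = 7) to -0.071 ± 0.48 for feature 24005_1 (n = 8). Feature 20239_1 had -1.15 ± 1.62 (n = 8), with -4.32 on sample 1 at 12 h. The remaining 8 had means from -0.61 to -0.079. By run, the means of the 11 features ran from -4.90 to 0.60 in run 1. They ran from -2.56 to -0.038 in run 2 and from -0.28 to 0.098 in run 3. Features of a gene on 1 array share their RNA. The share of all features with a mean below 0 was not counted. Medians over arrays were mixed: 3 features, 20243_1, 35007_1 and 24005_1, had a median above 0. Those 3 and feature 20245_1 were at 0.23 to 0.75 on sample 2 at 8 h, where the other 6 measured features were at -2.55 to -0.71. Feature 20247_1 was below 0 on all 7 of its arrays, from -1.05 to -0.039.

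Differences between features of a gene were tested on the arrays that hold both, with an exact 2-sided sign-flip permutation test over 59 pairs, 55 of them of ACTB. None passed after Benjamini-Hochberg adjustment; 2 pairs had an unadjusted p under 0.05. The smallest was for feature 20247_1 minus feature 24005_1, at -0.33 ± 0.28 (SD, n = 7; exact p = 0.016, adjusted p = 0.49), below 0 on 7 of 7 arrays. With 8 arrays the test allows no p under 0.0078, so over 59 pairs 1 pair alone could not pass. The smallest p found, 0.016, is already the lowest that 7 arrays allow. That none passed therefore does not show that the features are alike. The largest mean difference was 1.55 ± 1.60, for feature 24005_1 minus feature 34951_1 (n = 7, exact p = 0.062).

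The spread of the ACTB features on sample 3 at 12 h stood above that of every other gene with 5 or more features measured there. Their SD was 1.60, against a median of 0.26 and a largest value of 1.01 over the other 124 genes. On sample 3 at 24 h, the other array of run 1, the SD was 0.41 and larger than in 108 of 114 genes. It was 1.17 on sample 2 at 8 h, above 110 of 119 genes, and also 1.17 on sample 1 at 12 h, above 75 of 91. On sample 1 at 24 h, of the same run, it was 0.75, above 36 of 71 genes, and on the arrays of run 3 it was 0.10, 0.16 and 0.20, above 33 of 120, 44 of 121 and 67 of 123. So the features of ACTB were spread more widely than most on 4 arrays, and within the middle range of other genes on the rest.

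**Figure D3:**
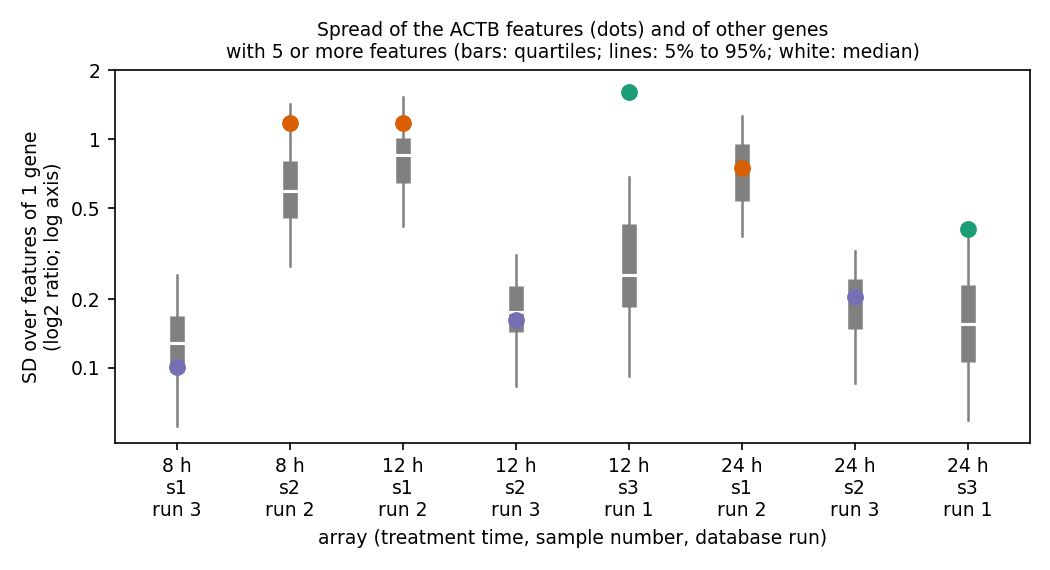
The SD over the features of a gene on each array (log axis), for ACTB (dots, coloured by database run) and for the other genes with 5 or more measured features (grey bars for quartiles, lines for percentiles 5 to 95, white marks for medians). The ACTB dot on sample 3 at 12 h, 1.60, lies above the largest value of any other gene on that array, 1.01.

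On the 2 arrays with the lowest ACTB values the mean lay below the median of the features. On sample 3 at 12 h the median of the ACTB features was -0.76 against a mean of -1.29, and on sample 1 at 12 h it was -0.88 against -1.30. On sample 3 at 24 h 6 of 10 features were above 0, with a median of 0.099. With the median of features in place of the mean, ACTB was at -0.39 ± 0.19 over the 3 times (SE, n = 8), ACTG1 at -0.43 ± 0.17 and PFN1, with its 2 features, at -0.25 ± 0.17. The order of the 2 actin genes turned, which is within their errors.

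The SD over features was smaller than that of ACTB on 5 of 8 arrays for ACTG1 and on 5 of 8 for PFN1, and larger on the rest. For ACTG1, means over arrays were -0.50 ± 0.44 for feature 24875_1 (SD, n = 7), below 0 on 7 of 7 arrays, -0.41 ± 0.46 for feature 27500_1 (n = 7) and -0.32 ± 0.54 for feature 17079_1 (n = 8). On sample 2 at 8 h the last was at 0.63, against -0.88 and -0.65 for the others. For PFN1, feature 34880_1 averaged -0.35 ± 0.70 and feature 24086_1 -0.19 ± 0.31 (n = 8 each). These 2 differed most on sample 1 at 24 h, at -1.86 and -0.53.

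The means at single times were compared within the fit, since the choice of members did not use differences between times. At 8 h ACTB averaged -0.26 ± 0.57 (SD, n = 2), ACTG1 -0.21 ± 0.14 and PFN1 -0.057 ± 0.14. At 12 h they averaged -0.85 ± 0.77, -0.47 ± 0.33 and -0.13 ± 0.46 (n = 3), and at 24 h -0.30 ± 0.56, -0.42 ± 0.49 and -0.55 ± 0.57 (n = 3). ACTB thus had its lowest mean at 12 h and PFN1 at 24 h, with SDs of up to 0.77 within a time.

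No difference between times passed limma's test with Benjamini-Hochberg adjustment over 5411 rows, in which 0.0% of rows were called for any pair of times. For 24 h minus 12 h, ACTB differed by 0.54 ± 0.47 (SE; 95% interval -0.52 to 1.60; adjusted p = 1.00), ACTG1 by 0.054 ± 0.34 (-0.71 to 0.82) and PFN1 by -0.41 ± 0.38 (-1.27 to 0.44). For 24 h minus 8 h the differences were -0.041 ± 0.52 (-1.23 to 1.15; adjusted p = 0.996), -0.21 ± 0.38 (-1.07 to 0.65; adjusted p = 0.99) and -0.49 ± 0.42 (-1.45 to 0.47; adjusted p = 0.99). For 12 h minus 8 h they were -0.58 ± 0.52, -0.26 ± 0.38 and -0.076 ± 0.42. All of these intervals include 0 and all are wider than 1 log2 unit, so they do not show that the times are alike. Unadjusted, 37, 44 and 64 rows had a p under 0.05 for the 3 pairs in this order. Each is below the share of 0.05 of the 5411 rows expected with no change.

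Within runs, each with at most 1 array per time, ACTB and ACTG1 did not keep 1 sign for 24 h minus 12 h. ACTB differed by 1.52 in run 1, whose arrays held partly different features, 0.42 in run 2 and -0.31 in run 3. ACTG1 differed by 0.55, -0.10 and -0.29 in the same order, and its arrays in run 3 also held partly different features. PFN1 differed by -0.41, -0.59 and -0.24, below 0 in all 3 runs. The share of all rows with 1 sign in all 3 runs was not counted, so no trend is read from this. For 24 h minus 8 h, which only runs 2 and 3 hold, ACTB differed by -0.22 and -0.40, ACTG1 by -0.60 and -0.32, and PFN1 by -1.04 and -0.39. In a fit blocked by run, ACTB differed by -0.064 ± 0.43 for 24 h minus 8 h, ACTG1 by -0.34 ± 0.31 and PFN1 by -0.71 ± 0.28 (SE). Their adjusted p in limma's test was 0.98, 0.82 and 0.80.

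In limma's test against DMSO 184 of 5411 rows had an unadjusted p under 0.05 over the 3 times. That is below the share of 0.05 expected with no change. After adjustment 0 rows were called over the 3 times and at each time, 0.0% in every case. The 3 members were therefore not called either, and nothing is read from that count.

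Other genes of the actin system were taken from lists by role, and beside them stands the whole table, where the median over the 3 times was -0.0077 and 51.6% of rows were below 0. Over the 3 times, at each time and between times 0 genes of any of these lists passed limma's test in either direction. On the values as deposited the median of all rows was -0.12, so list medians there are lower by about that much. Many of these values rest on 1 or 2 arrays, so the lowest and highest value with 1 array left out are given where that moved a value by over 1.5 times. Except for the lists named as turning sign, each list median kept its sign as deposited, after quantile normalization and on scaled arrays.

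Of the other actin isoforms only ACTG2, the smooth muscle γ-actin, was measured, with 1 feature, at -0.37 ± 0.19 (SE, n = 8). It was below 0 on 7 of 8 arrays, from -1.55 on sample 3 at 12 h to 0.34, and averaged -0.24 without that sample. Of 18 further monomer binders, cofilins and their regulators 7 were measured, 5 below 0, with a median of -0.059 (-0.19 to -0.033 with 1 array left out). SSH2, a slingshot phosphatase that activates cofilin, had -0.65 ± 0.37, and TWF2, a twinfilin that binds monomers and caps filaments, had -0.57 ± 0.26. SSH2 averaged -1.54 in run 2 and -0.17 and -0.080 in runs 1 and 3. Its mean was -0.28 without sample 1 at 12 h and -0.43 without sample 2 at 8 h, and that of TWF2 was -0.32 without sample 1 at 12 h. TMSB4X, which encodes thymosin β4, a close relative of thymosin β10, was at -0.059 ± 0.14 over its 6 features; it was chosen after its value was seen. On the arrays it had 0.071 and 0.87 at 8 h and -0.56, -0.27 and -0.0055 at 12 h. At 24 h it had -0.29, -0.53 and -0.29. TMSB4X thus lay lower on all 3 arrays at 24 h than on both at 8 h, a pattern not counted over all rows. Its mean turned to 0.075 without sample 1 at 8 h and was -0.19 without sample 2 at 8 h.

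Of the nucleators, the Arp2/3 complex and the WASP family, which start new and branched filaments, 9 of 31 genes were measured, 6 of them below 0, with a median of -0.091 (-0.15 to -0.067 with 1 array left out) that turned to 0.029 without run 2. WASF3 was at 0.31 ± 0.16 (SE, n = 8) and above 0 on 7 of 8 arrays. WIPF1, the partner that stabilises the WASP protein, was at -0.28 ± 0.14, with -0.12 without sample 2 at 8 h and -0.44 without sample 1 at 8 h. Of the capping, severing and crosslinking proteins 10 of 27 were measured, 5 below 0 and 5 above, with a median of -0.026 that turned to 0.029 after quantile normalization and 0.014 on scaled arrays (-0.12 to -0.0084 with 1 array left out). EZR, which encodes ezrin, a linker of filaments to the membrane, was at -0.44 ± 0.25, and ADD3, an adducin that caps filament ends, was at -0.34 ± 0.16 and below 0 on 7 of 8 arrays. EZR had run means of 0.16, -1.18 and -0.13 for runs 1, 2 and 3, and averaged -0.21 without sample 1 at 24 h.

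Among tropomyosins, myosins and calponins 6 of 20 were measured, 4 below 0, with a median of -0.072 (-0.11 to -0.044 with 1 array left out, -0.017 without run 2). MYL6, a light chain of non-muscle myosin, was at -0.19 ± 0.14 and CALD1, the filament binder caldesmon, at -0.11 ± 0.16 (SE, n = 8). CALD1 was above 0 on 5 of 8 arrays, and its mean turned to 0.10 without sample 2 at 8 h, where it was at -1.19, and was -0.32 without sample 1 at 8 h. MYL6 averaged -0.11 without sample 1 at 12 h and -0.13 without sample 2 at 8 h.

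SRF, its MRTF coactivators and other genes known as SRF targets formed a list of 15. Its 6 measured genes were SRF, VCL, CCN1, EGR1, FOS and JUNB, with no MRTF coactivator among them. They had a median of 0.055, 2 of them below 0, and of -0.074 on the values as deposited. With 1 array left out that median ran from -0.016 to 0.080, below 0 without sample 1 at 12 h or at 24 h. JUNB, an AP-1 subunit, was at -0.25 ± 0.13 (SE, n = 8) and FOS, another, at 0.12 ± 0.25, with run means of -0.52, 0.85 and -0.12 in runs 1, 2 and 3. FOS turned to -0.078 without sample 1 at 12 h and to -0.028 without sample 1 at 24 h. EGR1, named after its value was seen, was at 0.76 ± 0.34 (SE, n = 7), with 2.97 on sample 2 at 8 h. SRF itself was at 0.085 ± 0.13 and VCL, which encodes vinculin, at 0.025 ± 0.12; both were named after their values were seen. With 1 array left out SRF ran from 0.016 to 0.15, and VCL from -0.0071 to 0.077, with its sign turned by 3 of the arrays.

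The comparison with other widely used reference genes and another filament system used the same scale. Of 10 other housekeeping genes measured 6 were below 0, with a median of -0.057, which was 0.0032 after quantile normalization and 0.0050 on scaled arrays. It ran from -0.10 to 0.024 with 1 array left out, above 0 without sample 1 at 12 h or at 24 h, and was 0.060 without run 2. YWHAZ, a 14-3-3 protein gene, was at -0.31 ± 0.16 and EEF1A1, the translation elongation factor, at 0.25 ± 0.12 (SE, n = 8) and above 0 on 8 of 8 arrays. YWHAZ averaged -0.096 without sample 2 at 8 h and -0.52 without sample 1 at 8 h. Tubulins, a family that includes the subunits of microtubules, had 3 of 11 measured, all 3 below 0, with a median of -0.31. That median was -0.013 without run 2, -0.080 with array weights, -0.17 without sample 1 at 12 h and -0.17 without sample 1 at 24 h. TUBG1 was at -0.34 ± 0.20 and TUBB at -0.31 ± 0.21, and both averaged about as low in run 2, at -0.87 and -0.89, as ACTB did; without run 2 their means were -0.061 and -0.0099. With 1 array left out TUBG1 ran from -0.42 to -0.20 and TUBB from -0.40 to -0.17. The housekeeping list had a mean array median of 0.16 for run 1, -0.22 for run 2 and -0.015 for run 3.

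**Figure D4:**
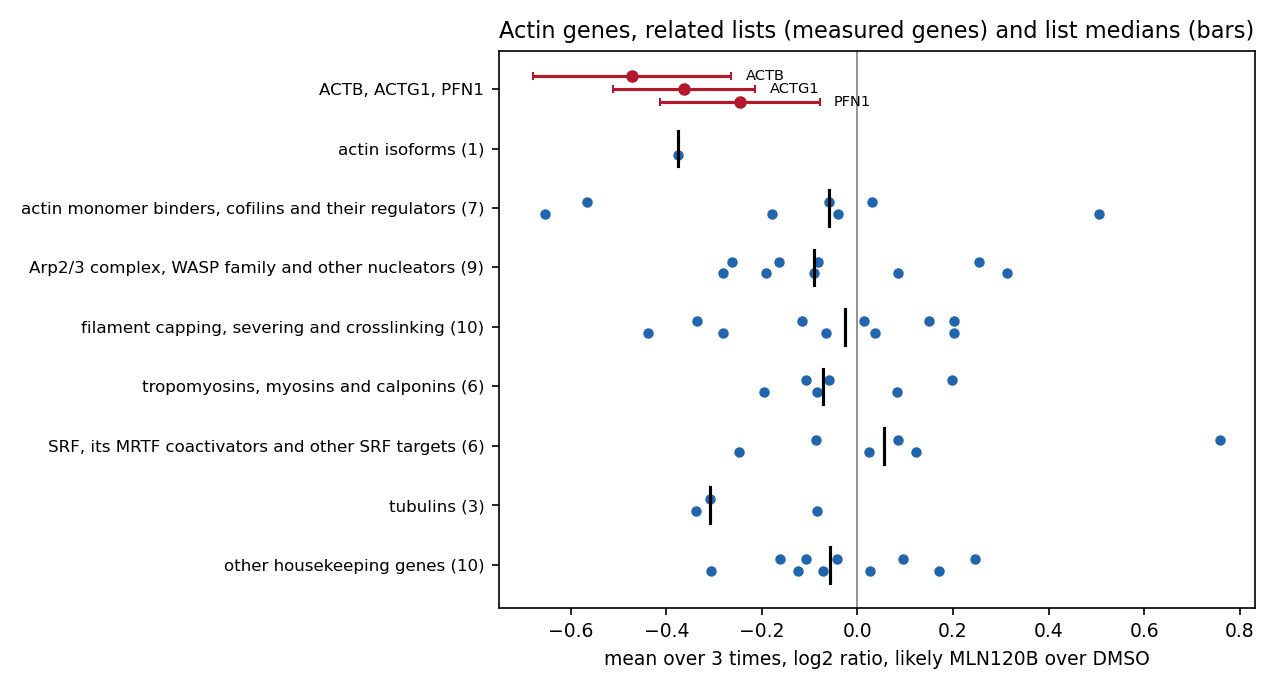
Means over the 3 times for ACTB, ACTG1 and PFN1 (red, ± SE, n = 8) and for the measured genes of each list plotted (blue dots), with list medians (black bars) and the number measured in brackets. ACTB and ACTG1 lie below every list median shown but that of the 1 other actin isoform, -0.37, and ACTB lies below that too; the tubulin median, -0.31, is -0.013 without run 2.

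Marker lists are given beside these values. Over the 3 times the 10 plasma cell markers had a median of 0.25, with 7 above 0; it was 0.14 without sample 1 at 24 h, 0.15 on scaled arrays, 0.12 as deposited and 0.082 with array weights. TNFRSF17, the receptor BCMA, was at 0.48 ± 0.16 (SE, n = 8), and at 0.29 without sample 2 at 8 h. SLAMF7 was at -0.46 ± 0.27, with 4 arrays on each side of 0 and a mean of 0.12 without run 2. With 1 array left out its mean ran from -0.71 to -0.21. Of 22 markers of T and NK cells, myeloid cells, red cells, platelets and stroma 12 were measured, 6 above 0 and 6 below, with a median of 0.0089, which was -0.094 as deposited and -0.029 on scaled arrays and ran from -0.033 to 0.088 with 1 array left out. CD3D was at -0.62 ± 0.48 and CD3E at -0.60 ± 0.34, both set by sample 2 at 8 h, where they were at -5.13 and -3.78. Without that array their means were 0.29 and 0.017, and CD3D was above 0 on 6 of 8 arrays. Without sample 1 at 8 h instead the means of CD3D and CD3E were -1.52 and -1.22. The NF-κB list of the study, 10 of 11 genes measured, had a median of -0.74, which was -0.47 without run 2 and -0.49 with array weights. NFKB2 was at -1.31 ± 0.33, below 0 on 8 of 8 arrays, and at -0.55 without run 2. PLEK was at -1.10 ± 0.84 and rested on sample 1 at 12 h, at -8.93; without it the mean was -0.16. Run by run the array medians of the NF-κB list had means of -0.85, -0.94 and -0.27. These genes were picked with results on these samples known, so their direction is no independent evidence, and their part in the actin values was not tested.

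The genes whose 8 values most resembled the mean of ACTB, ACTG1 and PFN1, by Pearson correlation among 2283 other named genes with 8 values, were GAPDH (0.92), ALDOA (0.92), SIN3A (0.91), CD81 (0.91) and ANXA6 (0.90). These are the highest of 2283 values over 8 arrays that share 3 runs and unequal spreads, so they are a description. GAPDH and ALDOA encode glycolytic enzymes, SIN3A a corepressor scaffold, CD81 a tetraspanin and ANXA6 an annexin. GAPDH ranged over the arrays from -0.72 on sample 1 at 12 h to 0.21 on sample 3 at 24 h, and had a mean over the 3 times of -0.11 ± 0.14 (SE, n = 8; -0.18 to -0.027 with 1 array left out). ALDOA, with values from -1.72 to 0.24, had a mean of -0.56 ± 0.26, and of -0.35 without sample 2 at 8 h. With each array scaled to the same median absolute deviation the correlations were 0.87 for GAPDH and 0.81 for ALDOA, and 0.54 for CD81, and 1 of the 5 genes stayed among the 5 highest.

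Processing moved the size of the means of ACTB, ACTG1 and PFN1, and not their sign. Over the 22 alternatives ACTB ran from -0.76 to -0.17, ACTG1 from -0.49 to -0.19 and PFN1 from -0.39 to -0.026. The values nearest 0 were all those without run 2. Scaling each array to the same median absolute deviation gave -0.24 ± 0.16 for ACTB, -0.29 ± 0.11 for ACTG1 and -0.16 ± 0.11 for PFN1 (SE), and array weights gave -0.26 ± 0.20, -0.23 ± 0.14 and -0.11 ± 0.13. ACTB, which was lowest in the centred values, was thus no longer the lowest on scaled arrays.

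**Figure D5:**
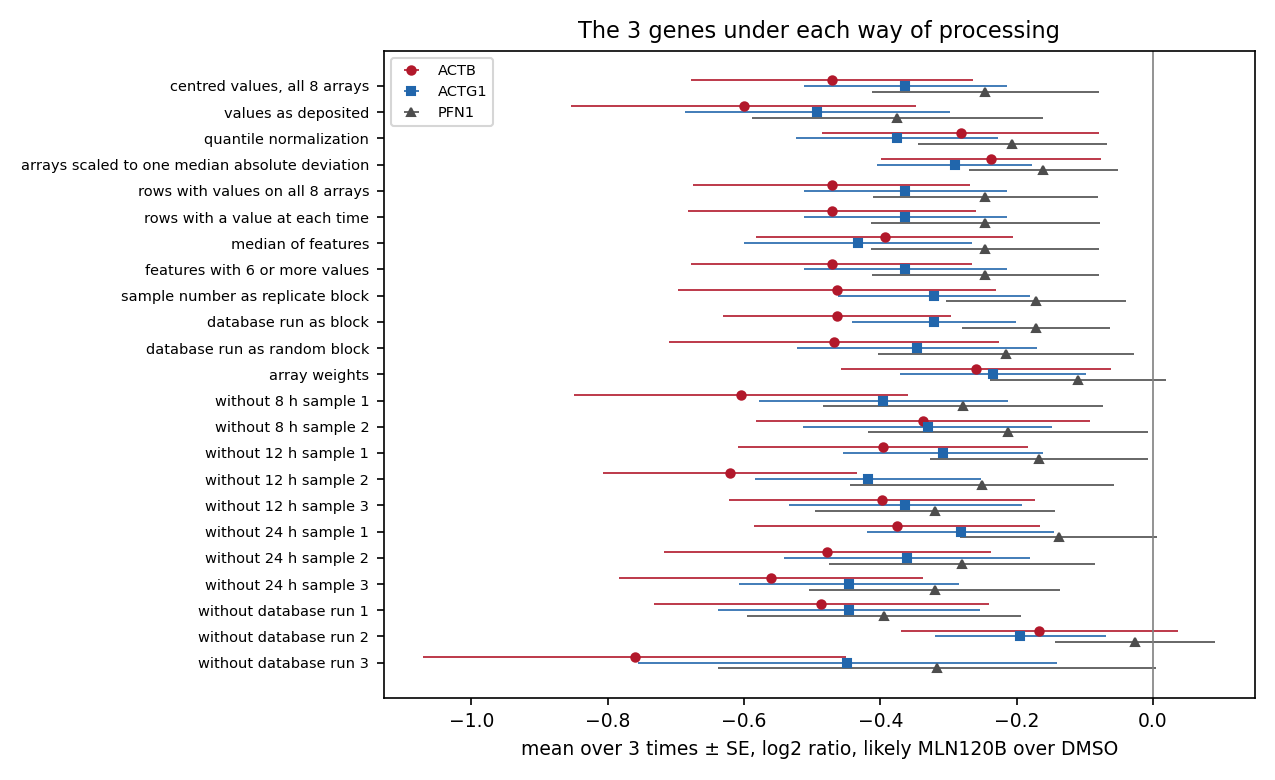
Means over the 3 times ± SE for ACTB, ACTG1 and PFN1 in the centred values (top) and under 22 alternatives. Points nearest 0 are those without database run 2, at -0.17, -0.19 and -0.026.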

How the data were processed

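The values were the authors' deposited log2 ratios of 8 2-colour arrays, 1 column each; how background, spot filtering and normalization were handled is not stated in the labels. Base 2 was read from the values, whose largest size, 12.4, exceeds the 11.1 a natural log ratio of 16-bit intensities can reach; it occurs on 1 array, so a shared base is an assumption. Direction is likely Cy5 over Cy3 and not stated. Without intensities nothing is known of signal against background; precision is limited by having 8 arrays.

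Each array's median (-0.48 to 0.001) was then subtracted. Features were named by the platform annotation, with symbols updated for 10128 through Entrez identifiers and 17 through accessions and 24 kept; 4 had several genes. Rows with at least 2 values at each time were fitted with limma 3.58.1 in R 4.3.3 (a mean per time, 5 residual degrees of freedom), with Benjamini-Hochberg over all rows and a threshold of 0.05. DMSO cells were read on every array, so their spread is part of each ratio and was not estimated apart. The script was tested on simulated data. Feature pairs were tested with SciPy 1.17.1 under Python 3.11.15.

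At 12 h and 24 h arrays with the same sample number were also of the same run, so number and run cannot be told apart. Their deviations correlated at 0.18, 0.23 and 0.30. Deviations at 8 h correlated at -0.30 to -0.14 with those of the same number at the other times. With those of the same run they correlated at 0.14 to 0.30. With 2 arrays at 8 h these ranges mirror each other. Members and lists were chosen with earlier results of these data known. Genes named were the members, the 2 genes of each list with the largest absolute mean among those with 8 values, and the 5 genes most like the members. One gene list is not reported here.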

Additional observations from a re-analysis of the deposited data

Results flagged for a closer look

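Feature 20245_1 of ACTB was above 0 on both arrays at 8 h and below 0 on all 3 at 24 h, a difference of -0.77 between the means of -0.53 at 24 h and 0.23 at 8 h. Feature 24086_1 of PFN1 did the same, with a difference of -0.47 between -0.38 at 24 h and 0.092 at 8 h. Each was picked out because every sample of one time lay opposite to every sample of the other. The differences were not tested for single features. The share of all features that did so was not counted, so no trend over time is read from them.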

How the results depend on the processing

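The means over the 3 times of ACTB, ACTG1 and PFN1 kept their sign under all 22 alternatives and moved by less than 1 SD over the arrays. The differences between times kept their side of the threshold under all of them. The sign of ACTG1 for 24 h minus 12 h turned with quantile normalization (-0.057), scaled arrays (-0.013), the median of features (-0.070) and without run 1 (-0.19), and leaving out 1 array gave -0.20 to 0.30. The sign of ACTB for 24 h minus 8 h turned with array weights (0.19) and without run 3 (0.34), with -0.44 to 0.36 when 1 array was left out, and ACTG1 gave -0.46 to 0.033 there. With the sample number as a replicate block the 24 h minus 12 h differences were the same and those for 24 h minus 8 h were -0.064, -0.34 and -0.71 for ACTB, ACTG1 and PFN1; the block changed no call.

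Counts of rows called over the 3 times were 0 in the centred values, 2 with quantile normalization, 2 with at least 1 value at each time, 6 with the run as a block, 38 without run 3, and 0 to 50 when 1 array was left out. For 24 h minus 8 h they were 3 with at least 1 value at each time, 40 without run 3 and 0 to 70 without 1 array. For 12 h minus 8 h they were 5, 46 and 0 to 71 in the same order. For 24 h minus 12 h they were 1 without run 3 and 0 to 2 without 1 array. The highest count over the 3 times came without sample 1 at 8 h, when 1 array at 8 h remains and is assumed to vary like the others. ACTB, ACTG1 and PFN1 had 0 calls in any setting. The cause was not tested. The count of feature pairs past the threshold stayed at 0 under its 9 alternatives. Leaving out an array raises the lowest p the test allows, so little is read from that.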
